A study of Mus musculus with 8 samples.

Results

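The response that mProx, MCT and NMuMG had in common is described here. These are mouse epithelial cell lines, mProx and MCT from kidney tubules, with mProx labelled as proximal tubule, and NMuMG from mammary gland. The comparison used 6 of the 8 arrays of the series and 3 of its 4 lines, all those with no mark of resistance in their labels. From each line came 1 array of untreated, resting cells and 1 of cells that had been stimulated for 24 h with recombinant human TGF-β1 at 3.0 ng/mL and recombinant human EGF at 3.0 ng/mL. Every culture, resting ones included, had been moved beforehand for 24 h to a medium with transferrin and insulin in place of serum. The fourth line, the mammary line EpH4, carries a label of resistance to the epithelial-mesenchymal transition (EMT) and was kept out of the test. Its arrays entered the normalization of the signals, and its values otherwise stand only as a comparison. The line was the replicate, and the question was which genes moved the same way in all 3 lines after stimulation. How many cultures were pooled for an array is not in the labels, and p-values therefore reflect only how these lines differ, a spread that may be partly technical.

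EMT is the process in which epithelial cells loosen their junctions, change their cytoskeleton and matrix, and become motile. TGF-β1 binds a receptor kinase pair that phosphorylates SMAD proteins, which enter the nucleus and act on target genes together with other factors. EGF activates its receptor tyrosine kinase and the ERK cascade, which induces AP-1 and ETS family factors and its own inhibitors. In kidney tubule and mammary epithelium this pair of factors is a common laboratory stimulus for EMT.

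Median deposited signals of the 6 arrays ran from 41.5 to 57.4, and means after trimming 2% at each end from 208.5 to 326.4, so the arrays did not share a scale. The stimulated array had 0.928 times the trimmed mean of its resting partner in mProx, 0.854 times in MCT and 1.28 times in NMuMG. All levels below are log2 values after an offset of 10.6 and quantile normalization, which removes these differences, and fold changes on this scale understate those of dim probe sets. On the values as deposited the median tested probe set changed by -0.11 in mProx, -0.23 in MCT and 0.32 in NMuMG, and changes below are relative to such shifts. A level under 5.26, the filter level, is called dim. Arrays read the mean of a culture, so fewer cells of a type and less RNA per cell cannot be told apart. Epithelial genes were measured on every array, with 33 to 39 of 53 list members at or above the filter level, although Cdh1, the E-cadherin gene, was dim on all arrays of mProx and MCT. Of the proximal tubule markers, Lrp2, the megalin gene, stood at 8.78 in resting mProx, 6.87 in resting MCT and 4.48 in resting NMuMG, while Slc13a1, Anpep, Gatm, Pck1 and Miox were dim on all 6 arrays. In that list 11 to 17 of 26 measured members were at or above the filter level on an array. Of 15 leukocyte markers 6 to 10 were at or above it, and of 12 endothelial markers 4 to 7. The leukocyte genes Ptprc, Cd3d and Cd4 and the endothelial genes Pecam1, Tek, Tie1 and Vwf were dim on all 6 arrays. Of 15 measured mammary luminal markers 7 to 9 were at or above the filter level, while Elf5, Csn2 and Lalba were dim on all 6 arrays.

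Stimulation changed 15 genes in the same direction in mProx, MCT and NMuMG past the threshold, 6 of them higher and 9 lower. The rising genes were Acsbg1, Tnnt2, Hmga2, Gadd45a, Pmaip1 and Gja1. The falling genes were Sult1c2, ccdc198, C1s1, Ptgds, Lbp, Scel, Atp1b1, Gstm1 and C1ra. Tnnt2, Hmga2 and Gstm1 were each called by 2 probe sets, so 8 probe sets rose and 10 fell of 27022 tested, which is 0.0296% and 0.037% of those tested (limma, Benjamini-Hochberg adjusted p under 0.05). At an unadjusted p under 0.05 there were 1654 higher and 1462 lower probe sets, and at an adjusted p under 0.1 there were 50 and 51. The number called depends on 1 line and on the settings, since without NMuMG it was 62 rising and 60 falling, and with no intensity trend or no filter it was 0.

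**Figure D1:**
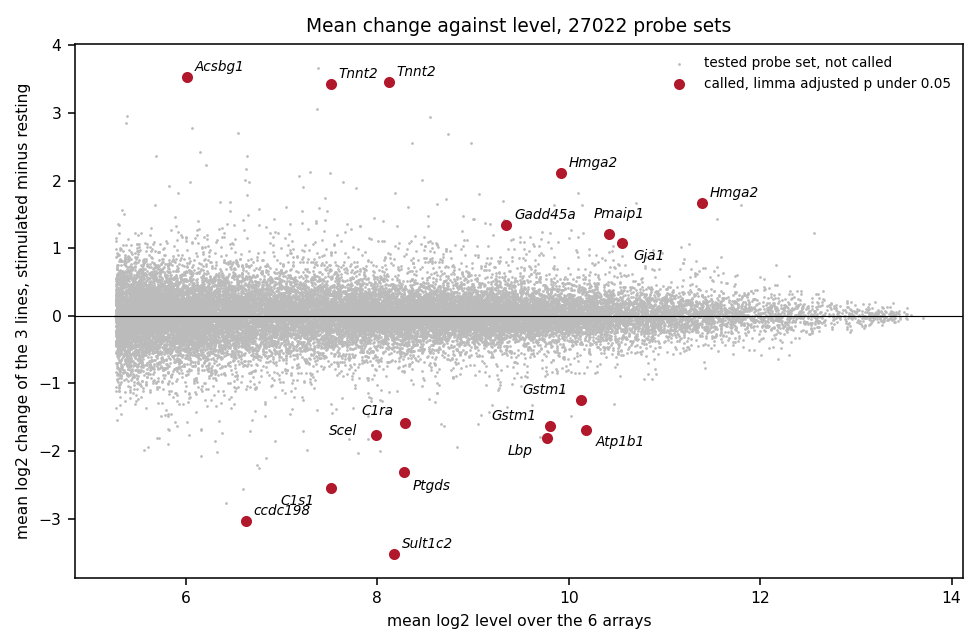
Mean log2 change of mProx, MCT and NMuMG (vertical axis, stimulated minus resting) against the mean log2 level over the 6 arrays (horizontal axis), 1 point per probe set, for 27022 probe sets. The 18 called probe sets are in red with their gene symbols, from Sult1c2 at -3.52 to Acsbg1 at 3.53. Acsbg1, C1s1, Sult1c2, ccdc198 and 1 Tnnt2 probe set had dim arrays, so their places are not exact.

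Acsbg1, an acyl-CoA synthetase that activates very long chain fatty acids, rose in each line. Its probe set 1422428_at stood at 3.76 in mProx, 4.17 in MCT and 4.81 in NMuMG at rest, and at 6.87, 8.41 and 8.04 after stimulation. All resting values were dim and all stimulated values were not, so the groups were apart and the size of the rise is not exact. The mean change was 3.53 ± 0.62 on the log2 scale (SD, n = 3 lines; limma adjusted p = 0.0217), and 2.16 with an offset of 50, where it did not pass (0.0585). Acsbg1 also went from 5.85 to 8.19 in EpH4.

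Tnnt2 encodes cardiac troponin T, which anchors the troponin complex to tropomyosin on thin filaments. Probe set 1418726_a_at read 5.35 in mProx, 6.79 in MCT and 7.03 in NMuMG at rest, against 8.91, 10.74 and 9.88 after stimulation. Every stimulated array lay above every resting one, and the rise was 3.46 ± 0.56 (SD, n = 3; limma adjusted p = 0.0171). The other called Tnnt2 probe set, 1424967_x_at, rose by 3.43, with resting mProx dim. In EpH4 Tnnt2 was already at 9.54 at rest, above the resting arrays of the other lines, and at 11.11 after stimulation.

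The sequences before the start sites of the 2 rising and 2 falling genes with the largest mean changes in the reported fit are printed so that a reader can see which short motifs they hold. Each is the 250 bases upstream of a RefSeq start in assembly GRCm38.p6, 5′ to 3′ on the gene's strand. Capitals mark matches, on either strand, to 4 motifs, namely CAGAC (the SMAD box), TGANTCA (AP-1), CCGGAAG (ETS) and CATTCC (TEAD). The Acsbg1 window is chr9:54661886-54662135 on the minus strand and the printed Tnnt2 window chr1:135836084-135836333 on the plus strand. The Sult1c2 window is chr17:53845959-53846208 and that of ccdc198 chr14:49245429-49245678, both on the minus strand.
Acsbg1: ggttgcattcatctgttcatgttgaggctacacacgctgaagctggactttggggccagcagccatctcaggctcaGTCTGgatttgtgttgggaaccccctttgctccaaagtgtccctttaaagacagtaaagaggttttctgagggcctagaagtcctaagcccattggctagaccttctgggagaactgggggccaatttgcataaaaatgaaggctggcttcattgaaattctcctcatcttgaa
Tnnt2: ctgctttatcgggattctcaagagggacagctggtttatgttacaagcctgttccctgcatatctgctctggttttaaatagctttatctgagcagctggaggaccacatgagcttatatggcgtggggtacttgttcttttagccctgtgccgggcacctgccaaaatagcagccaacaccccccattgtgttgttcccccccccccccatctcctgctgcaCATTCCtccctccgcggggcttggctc
Sult1c2: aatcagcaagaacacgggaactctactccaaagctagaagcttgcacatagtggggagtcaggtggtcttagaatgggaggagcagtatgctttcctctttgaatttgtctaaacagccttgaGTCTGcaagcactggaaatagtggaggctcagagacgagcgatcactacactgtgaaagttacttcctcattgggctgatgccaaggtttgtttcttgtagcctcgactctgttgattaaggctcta
ccdc198: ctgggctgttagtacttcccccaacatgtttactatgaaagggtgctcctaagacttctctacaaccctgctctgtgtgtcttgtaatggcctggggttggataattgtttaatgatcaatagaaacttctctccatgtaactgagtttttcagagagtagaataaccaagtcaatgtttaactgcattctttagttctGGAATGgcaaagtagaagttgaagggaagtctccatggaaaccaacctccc
The Acsbg1 and Sult1c2 windows each hold 1 SMAD box on the opposite strand. Those of Tnnt2 and ccdc198 each hold 1 TEAD motif, on the printed strand in Tnnt2 and on the opposite one in ccdc198. A second Tnnt2 window in the table, chr1:135836739-135836988, holds none of the 4 motifs.

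Hmga2 encodes an architectural chromatin protein that binds AT-rich DNA and is abundant in embryonic tissue. At probe set 1450781_at it stood at 7.83 in mProx, 8.47 in MCT and 10.26 in NMuMG at rest and at 9.81, 11.31 and 11.80 after stimulation. The stimulated mProx array stayed under the resting NMuMG array, so the groups overlapped, while each line rose, by 2.12 ± 0.66 on average (SD, n = 3; limma adjusted p = 0.045). A second probe set, 1450780_s_at, rose by 1.67, and 1422851_at, the one that stands for Hmga2 in the gene lists, had a change of 1.68 that did not pass (limma adjusted p = 0.0965). The remaining tested probe set, 1446196_at, was at 1.71 in MCT but at -0.11 in mProx and -0.25 in NMuMG (limma adjusted p = 0.702). A probe set of the pseudogene Hmga2-ps1 was higher by at least 2-fold in each line too, and the array may not separate signal of such near-identical copies.

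Gadd45a, a growth arrest and DNA damage inducible gene, was at 7.91 in mProx, 8.55 in MCT and 9.57 in NMuMG at rest and at 9.40, 9.87 and 10.79 after stimulation. Its changes were the most even of the called genes, with a mean of 1.35 and an SD of 0.14 (n = 3; limma adjusted p = 0.045). Resting NMuMG lay above stimulated mProx, so the groups overlapped although each pair moved the same way. EpH4 was higher than all 6 arrays, at 12.04 at rest and 11.90 after stimulation.

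Pmaip1 encodes Noxa, a BH3-only protein that promotes apoptosis. It was at 9.21, 10.20 and 10.03 in resting mProx, MCT and NMuMG and at 10.48, 11.64 and 10.96 after stimulation, so that the groups did not overlap. The rise was 1.21 ± 0.26 (SD, n = 3; limma adjusted p = 0.045). In EpH4 both arrays were dim, at 3.64 and 3.44.

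Gja1, which encodes the gap junction protein connexin 43, rose although it belongs to the epithelial junction list. Its probe set 1415800_at went from 9.99 to 11.10 in mProx, from 9.84 to 11.06 in MCT and from 10.22 to 11.11 in NMuMG. The stimulated arrays were nearly level with each other and above all resting arrays, with a change of 1.08 ± 0.17 (SD, n = 3; limma adjusted p = 0.045). The 5 other Gja1 probe sets were also higher in each line, by 0.60 to 1.26, and 2 of them, 1438650_x_at and 1438945_x_at, lay just outside the threshold at limma adjusted p = 0.051 and 0.0565.

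Sult1c2, a cytosolic sulfotransferase, fell in each line. It stood at 10.97 in mProx, 7.78 in MCT and 11.05 in NMuMG at rest, and at 6.83, 5.06 and 7.36 after stimulation. Stimulated MCT was dim, all stimulated arrays lay under all resting ones, and the change was -3.52 ± 0.72 (SD, n = 3; limma adjusted p = 0.0171). The size is not exact because of the dim array, and with an offset of 50 the change was -2.99 and did not pass (0.0621). EpH4 began near the filter level, at 5.45, and ended dim at 3.97.

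The uncharacterised gene ccdc198 was at 10.70 in mProx, 7.27 in MCT and 6.45 in NMuMG at rest and at 6.78, 4.25 and 4.28 after stimulation. Stimulated MCT and NMuMG were dim, so its size is not exact, and stimulated mProx was still above resting NMuMG. It fell by 3.03 on the log2 scale with the widest spread of the called probe sets, an SD of 0.87 (n = 3; limma adjusted p = 0.045).

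C1s1 and C1ra encode the serine proteases C1s and C1r, which form the first component of the classical complement pathway with C1q. C1s1 was at 9.63 in mProx, 6.16 in MCT and 10.57 in NMuMG at rest and at 6.59, 3.96 and 8.18 after stimulation, and fell by 2.54 with an SD of 0.45 (n = 3; limma adjusted p = 0.0217). C1ra went from 9.16 to 7.46 in mProx, from 8.03 to 6.37 in MCT and from 10.04 to 8.65 in NMuMG, and fell by 1.58 with an SD of 0.17 (n = 3; limma adjusted p = 0.045). Both genes were highest in NMuMG and lowest in MCT before and after stimulation, and the groups of arrays overlapped. Stimulated MCT was dim for C1s1, so that size is not exact, and the suffix of its probe set, 1424041_s_at, marks one that may bind related transcripts.

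Lbp, a plasma protein that binds bacterial lipopolysaccharide, is also an acute phase gene. Its probe set 1448550_at read 10.36 in mProx, 11.24 in MCT and 10.41 in NMuMG at rest and 8.18, 9.93 and 8.49 after stimulation. Every stimulated array was under every resting one, and it fell by 1.80 with an SD of 0.45 (n = 3; limma adjusted p = 0.045). A second probe set, 1447520_at, had a change of -2.25 that did not pass (limma adjusted p = 0.0704). EpH4 held Lbp at 8.58 and 8.65.

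Ptgds encodes the lipocalin-type synthase that makes prostaglandin D. At probe set 1423859_a_at its levels were 10.86 in mProx, 8.98 in MCT and 8.48 in NMuMG at rest. They were 8.35, 6.65 and 6.37 after stimulation, with the groups apart. There it fell by 2.31, similarly in each line, with an SD of 0.20 (n = 3; limma adjusted p = 0.0171), or 4.97-fold. In EpH4 this probe set was near the filter level on both arrays, at 5.39 and 5.71. The second Ptgds probe set, 1423860_at, was less even, at -2.54 in mProx, -1.69 in MCT and -1.25 in NMuMG. Its mean change of -1.83 did not pass (limma adjusted p = 0.0749).

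Atp1b1, the beta subunit of the sodium pump that basolateral membranes of tubule cells are rich in, went from 11.33 to 9.10 in mProx, from 11.37 to 9.91 in MCT and from 10.36 to 8.98 in NMuMG. The groups were apart, and it fell by 1.69 with an SD of 0.46 (n = 3; limma adjusted p = 0.045). Of 4 other Atp1b1 probe sets, 3 were lower in each line, with mean changes from -1.80 to -1.30, and 1455949_at, the dimmest, was not.

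Gstm1, a mu class glutathione transferase that conjugates electrophiles, went from 10.51 to 9.06 in mProx, from 10.30 to 8.68 in MCT and from 11.04 to 9.23 in NMuMG. No array of 1 group reached into the other, and it fell by 1.63 with an SD of 0.18 (n = 3; limma adjusted p = 0.0201). A second probe set, 1416416_x_at, fell by 1.25 on average, but mu class genes are similar in sequence and its suffix marks possible binding to others. The other 2 tested Gstm1 probe sets were also lower in each line but did not pass, 1425626_at at -0.63 (limma adjusted p = 0.348) and 1425627_x_at at -0.65 (0.398), the latter with -0.05 in mProx.

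Scel encodes sciellin, a precursor of the cornified envelope. It was at 10.89 in mProx, 7.93 in MCT and 7.77 in NMuMG at rest and at 9.38, 5.81 and 6.12 after stimulation. Scel fell by 1.76 with an SD of 0.32 (n = 3; limma adjusted p = 0.045), although stimulated mProx stayed above resting MCT and NMuMG.

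**Figure D2:**
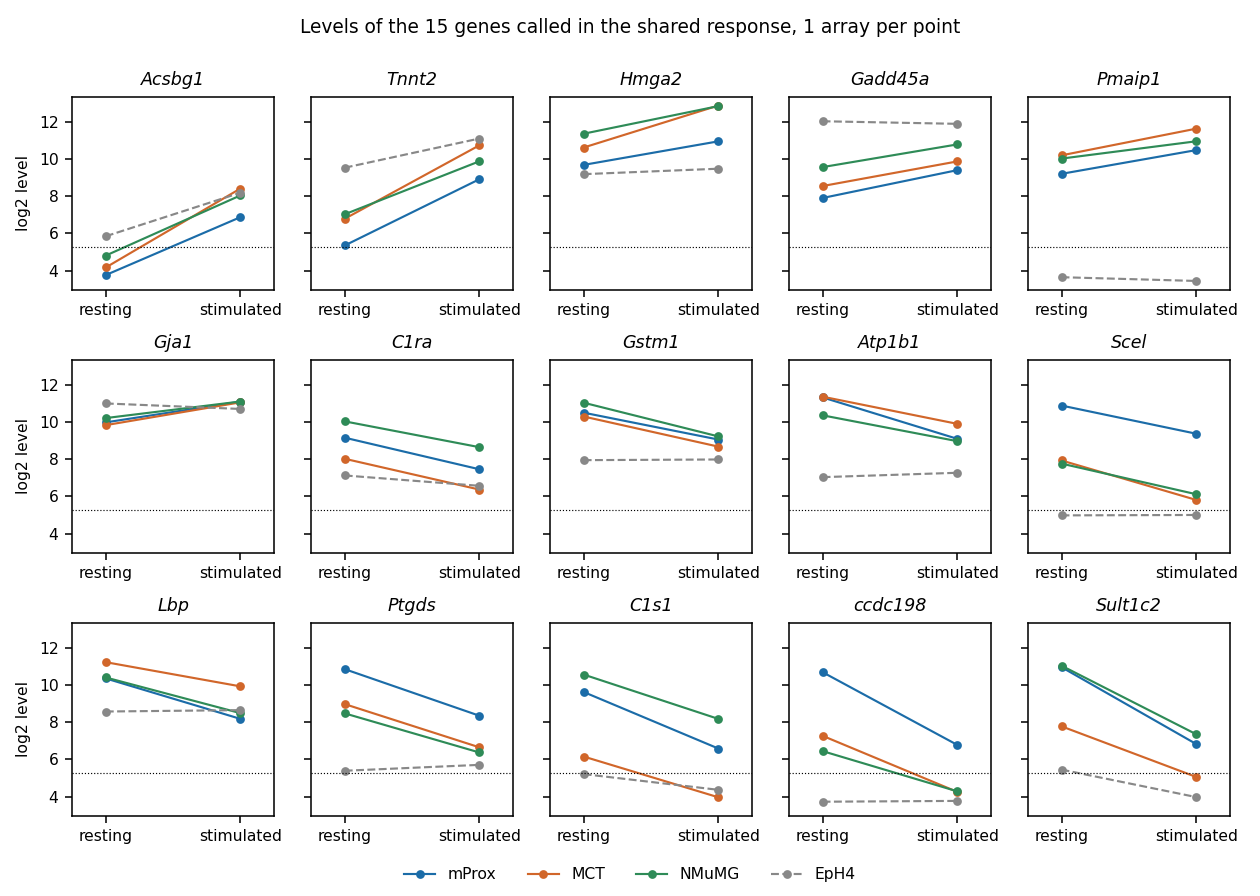
Log2 level (vertical axis) of the 15 called genes in resting and stimulated cells, 1 array per point, with the 2 arrays of a line joined, EpH4 dashed, and the filter level of 5.26 dotted. For genes with several called probe sets the one with the smallest p is drawn, and in mProx, MCT and NMuMG the lines of a panel run the same way while EpH4 is flatter. The genes were chosen by their change in mProx, MCT and NMuMG, without EpH4 except in the normalization.

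Of the 18 called probe sets, 11 had all stimulated arrays above or all below all resting arrays, 5 up and 6 down. Among all tested probe sets 2.89% were apart upwards and 1.98% downwards. The call used the same arrays, so a larger share among called probe sets follows from the choice and is not further support. The other 7 called probe sets overlapped because lines differed in level, and 13 of the 18 had no dim array among the 6. Of 15 further tested probe sets of the called genes, 14 had the direction of the called one, 13 of them in each line. They read the same genes on the same arrays, so this is not independent support either. Leaving out mProx kept 11 of the 18 past the threshold, leaving out MCT kept 10, and leaving out NMuMG kept all 18. Those fits reuse arrays that made the call, so passing them follows in part from the choice. Probe sets of Acsbg1, C1s1, Gstm1, Hmga2, Lbp, Ptgds, Sult1c2 and Tnnt2, 9 in all, passed in each of these fits of 2 lines. In contrast, ccdc198, Scel, C1ra, Gja1, Pmaip1 and Gadd45a failed both without mProx and without MCT, where limma adjusted p ran from 0.0578 to 0.14, and Atp1b1 failed without MCT (0.0784).

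EpH4 gave smaller changes than the mean of the 3 lines for all 18 called probe sets. These were called on the 3 lines alone, so a smaller change in a line outside the test follows in part from the choice. The sign in EpH4 was the same for 5 of the 8 rising and 4 of the 10 falling ones. Its share over all tested probe sets was not counted. Acsbg1 and Tnnt2 had the largest EpH4 changes, 2.34 and 1.57, and Sult1c2 followed at -1.48. Gadd45a, Pmaip1 and Gja1 were at -0.14, -0.20 and -0.30 in EpH4. Lbp, Scel, ccdc198 and the Gstm1 probe set 1448330_at were between 0.02 and 0.08. The other called Gstm1 probe set, 1416416_x_at, was at -0.335 in EpH4. Pmaip1, ccdc198, Scel and C1s1 were dim on both EpH4 arrays, so a fall of ccdc198 or Scel could not have been seen there. The EpH4 change of C1s1, -0.85, counted above as the same sign, is therefore unsure. When the EpH4 change was tested against the mean change of the other lines, 0 of 27022 probe sets passed in limma, which is 0% of those tested, against 885 at an unadjusted p under 0.05. The smallest adjusted p was 1, so a different response of EpH4 is not shown for any of these genes. On the values as deposited 13 passed. Across all tested probe sets the log2 change had an SD of 0.39 in EpH4, while mProx and MCT were both at 0.51 and NMuMG at 0.53.

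A wider set of genes changed at least 2-fold in each of the 3 lines without regard to the test. It held 36 probe sets higher and 39 lower, or 0.133% and 0.144% of those tested, from 29 and 28 genes, with 5 probe sets that have no single symbol. Of these 75 probe sets 16 were also called, 6 higher and 10 lower. The genes described next did not pass, and 18 of the higher and 19 of the lower probe sets had at least 1 dim array, so many sizes are not exact.

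Ctsw, a papain-family cathepsin, went from 3.99 to 7.24 in mProx, from 5.10 to 10.63 in MCT and from 7.54 to 9.74 in NMuMG (limma adjusted p = 0.0774). The lines thus began far apart and differed in size of change, with an SD of 1.71 around a mean of 3.66. Ctla2a, related to the propeptide of cysteine proteases, was higher by 2.68 (0.0749), the stromelysin gene Mmp10 by 2.37 (0.0704) and the disintegrin metalloprotease gene Adam12 by 2.01 (0.0774). Mmp10 was dim at rest in all 3 lines and between 6.08 and 8.03 after stimulation, so its groups were apart.

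Has2, a synthase of hyaluronan, was dim at rest in each line, at 3.61 in mProx, 3.55 in MCT and 4.56 in NMuMG, and at 5.12, 8.70 and 6.76 after stimulation. MCT stood out with a change of 5.15, and the SD of 1.93 was the widest of the higher genes named here (mean 2.95; limma adjusted p = 0.185). Stimulated mProx was still dim. Ccbe1, a secreted factor of lymphatic development, was higher by 2.71, the matricellular gene Smoc1 by 1.93, the laminin chain gene Lamb3, named after its values were seen, by 1.68 and the fibrillar collagen gene Col1a1 by 1.65. Col1a1 remained at 5.26 in stimulated MCT, at the filter level. Smoc1 was dim at rest in each line and its groups were apart.

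Dusp5, a nuclear ERK phosphatase, went from 4.86 to 7.43 in mProx, from 6.53 to 8.74 in MCT and from 7.05 to 8.46 in NMuMG (mean 2.07; limma adjusted p = 0.0678). Its stimulated arrays were all above the resting ones, and in EpH4 it went from 7.13 to 7.55. The ETS factor gene Etv5 was higher by 1.89 with groups apart, and most so in mProx, by 2.91 (mean change, adjusted p = 0.113). Pmepa1, a membrane protein that restrains TGF-β signalling, was higher in each line at 3 probe sets, by 1.80 to 2.55, and most so in MCT (0.142 to 0.176). Spsb1, a SOCS box protein gene, was higher by 2.23 and Whrn, the scaffold gene whirlin, by 1.79.

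Enpep, the brush border enzyme aminopeptidase A, went from 11.22 to 7.06 in mProx, from 5.47 to 4.39 in MCT and from 6.73 to 3.66 in NMuMG (mean -2.77; limma adjusted p = 0.146). Only mProx remained above the filter level, and its stimulated level was higher than the resting levels of the other lines. Mme, the membrane peptidase neprilysin, had changes of -2.07 and -1.82 at its 2 probe sets (both 0.0774). Chdh, choline dehydrogenase of mitochondria, had a mean change of -1.98, Nr1h4, the bile acid receptor gene, of -1.69 and Cdh16, kidney cadherin, of -1.59. Cdh16 was at 12.23 in resting mProx and 10.80 in resting MCT, against 5.33 in resting NMuMG and 4.07 in stimulated NMuMG.

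Id2, an inhibitor of helix-loop-helix factors that BMP signalling induces, was lower at both of its probe sets. At 1422537_a_at it went from 10.38 to 7.98 in mProx, from 8.61 to 7.38 in MCT and from 8.10 to 5.73 in NMuMG, with groups apart (mean -2.00; limma adjusted p = 0.0704). Chrdl1, a secreted BMP antagonist, had a change of -2.02 (0.0774). Scara5, a ferritin receptor, was lower by nearly the same amount in each line, with a mean of -1.94 and an SD of 0.10 (0.0704), although stimulated MCT and NMuMG were dim. Vegfd, a lymphatic growth factor gene, had a mean change of -1.85 in the 3 lines and was higher by 0.67 between dim arrays of EpH4. Selenbp1, a selenium-binding protein gene, had a change of -1.77, and Cys1, a cilium protein gene, of -1.70. The integrin gene Itgb8 was at -1.63, and it, Nr1h4 and Cdh16 were named after their values were seen.

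**Figure D3:**
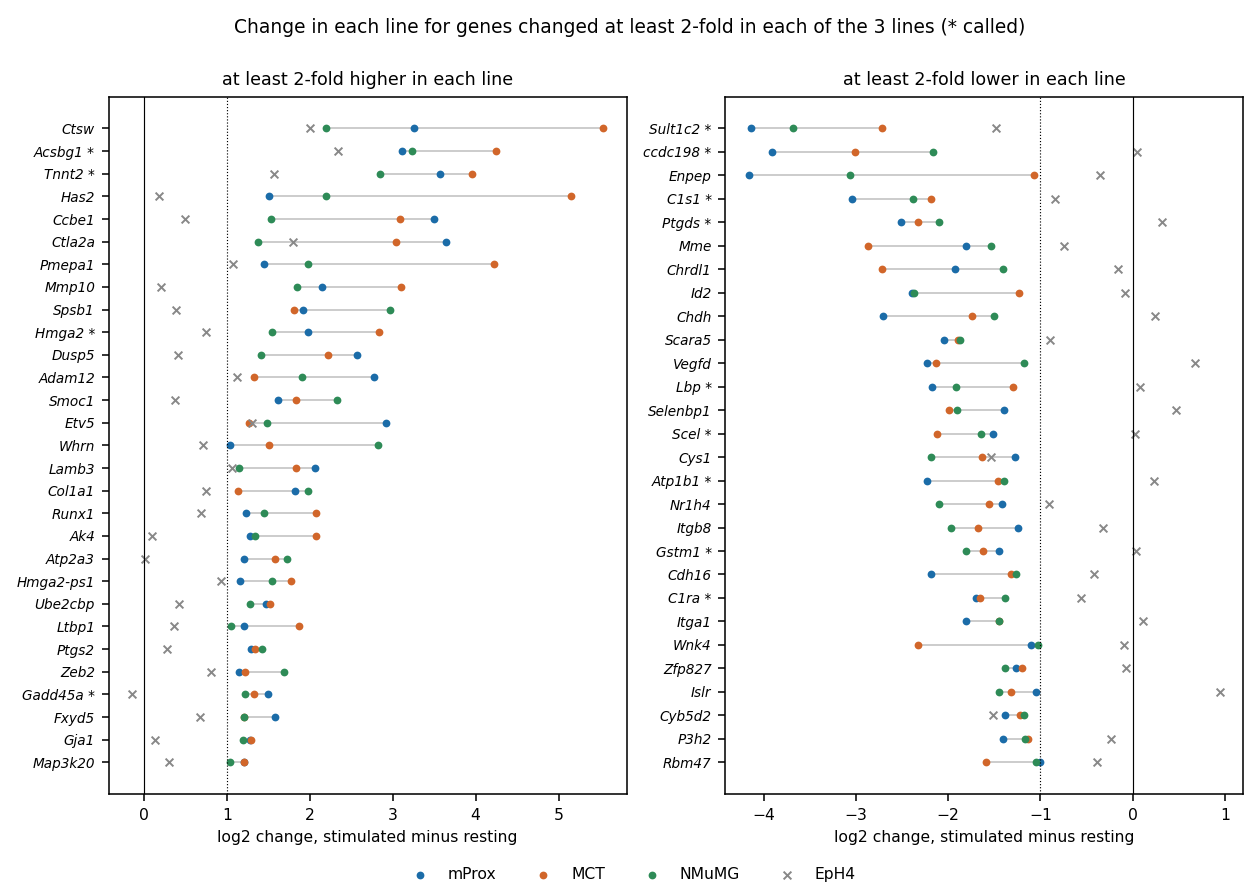
Log2 change (horizontal axis, stimulated minus resting) in mProx, MCT, NMuMG (points) and EpH4 (crosses) for the 29 genes higher and 28 genes lower by at least 2-fold in each of the 3 lines, 1 probe set per gene, with an asterisk where that probe set was called. The dotted line marks 2-fold, and EpH4 crosses sit between it and 0, or on the other side of 0, for most genes. EpH4 entered the normalization but not the choice of genes.

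EpH4 had the same sign for 35 of the 36 higher probe sets and 22 of the 39 lower ones. It was changed at least 2-fold the same way for 11 and 4 of them. The difference between these shares was not tested, and the share of each sign over all tested probe sets was not counted. Several lower genes, among them Enpep, Mme, Chrdl1 and Cdh16, were dim on both EpH4 arrays, where a fall could not have been seen. Of the higher genes, Smoc1, Spsb1 and Mmp10 were dim there too. Higher and lower probe sets were chosen on the 3 lines, so smaller changes in EpH4 follow in part from the choice. Of the 27022 tested probe sets, 412 were at least 2-fold higher in EpH4 and 483 lower. Of all tested probe sets, 2.73% in mProx, 2.92% in MCT and 3.03% in NMuMG were at least 2-fold higher, and 2.72%, 2.69% and 3.76% lower. MCT and mProx shared 139 higher probe sets, 18.9% of the 737 in mProx and 17.6% of the 789 in MCT. NMuMG, the mammary line, shared 89 with mProx, 12.1% of those of mProx and 10.9% of its own 820. Among lower probe sets, mProx and NMuMG shared 139, 18.9% of the 736 in mProx and 13.7% of the 1016 in NMuMG, while mProx and MCT shared 116. Over all tested probe sets the changes of pairs of lines correlated at r = 0.164 to 0.217, values that rest on 1 array pair per line.

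The pathway lists were described with 1 probe set per gene. Among 12483 tested genes, 18.6% were higher in each of the 3 lines and 16.8% lower, and the median change was 0.01. Lists were chosen with earlier results of these data known, so these counts are descriptions. Of the 12483 genes, 5 rose and 9 fell past the threshold at the probe sets that stand for them. Of the 28 lists, 8 held a called gene.

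TGF-β and SMAD target genes were mostly higher. Of 36 tested members of 40 listed, 21 (58.3%) were higher in each line and 0 were lower in each line, with a median of 0.49, but 0 passed the test at the probe sets that stand for them. By line the median was lowest in mProx, at 0.17, and higher in EpH4 (0.40), NMuMG (0.54) and MCT (0.63). Smad7, the inhibitory SMAD, changed by 0.01 in mProx, 0.60 in MCT and 0.79 in NMuMG (limma adjusted p = 0.408). Members named after their values were seen include Ltbp1, which stores latent TGF-β in the matrix, higher by 1.38 ± 0.43 (SD, n = 3; 0.0704). Rhob, a small GTPase of the actin cytoskeleton, was higher by 0.71 ± 0.10 (0.0678) and Skil, a SMAD corepressor, by 0.94 ± 0.40 (0.116). BMP and Id targets had 8 tested members, with 1 higher in each line and 2 lower, and Id1 was at -0.26 ± 0.45 (0.643).

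Feedback genes of the ERK pathway followed, with 15 of 34 tested members (44.1%) higher in each line, 1 lower and none called. Both kidney lines had higher medians, 0.53 in mProx and 0.66 in MCT, than NMuMG with 0.22. Dusp6, the cytoplasmic ERK phosphatase, was higher by 2.44 in mProx and 1.47 in MCT and at -0.24 in NMuMG, where its level was 10.51 at rest, so it is not part of the shared set (limma adjusted p = 0.358). Spry2, a receptor tyrosine kinase inhibitor, was at 0.51 ± 0.31 (SD, n = 3; 0.339).

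EMT transcription factors had 5 of 13 tested members higher in each line and 1 lower, none called. Snai2 was higher by 1.33 in mProx, 0.77 in MCT and 1.38 in NMuMG (limma adjusted p = 0.156), with resting MCT dim. Snai1, its paralog, was higher by 1.67 in NMuMG and 0.76 in MCT but at -0.09 in mProx (0.442). Zeb2, named after its values were seen, was higher at 1434298_at, a probe set outside this count. Its changes there were 1.15 in mProx, 1.22 in MCT and 1.69 in NMuMG, and it did not pass (limma adjusted p = 0.0799). Mesenchymal and actin genes had 12 of 28 higher in each line, 2 lower and Tnnt2 called. Vim, the vimentin gene, was between 13.20 and 13.47 on all 6 arrays, close to the top of the scale, and its change of 0.13 ± 0.03 did not pass (0.414).

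Epithelial junction, keratin and identity genes did not share a direction. Of 40 tested members 8 were higher in each line, 8 lower, 1 rose (Gja1) and 1 fell (Scel), and the median was -0.01, or 0.01 on the values as deposited. Cdh1 changed by -0.62 in NMuMG, from 10.69 to 10.06, and was dim in both kidney lines. Tjp1, the tight junction scaffold gene, was at -0.19 ± 0.26 (SD, n = 3; limma adjusted p = 0.59). The simple keratin genes Krt8 and Krt18 were higher in each line, by 0.85 ± 0.37 (0.16) and 0.86 ± 0.53 (0.169).

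Collagen and other matrix genes had 15 of 35 tested members (42.9%) higher in each line and 4 lower, with none called and a median of 0.23. Fn1, fibronectin, was higher by 1.43 in mProx and 2.14 in MCT and by 0.11 in NMuMG, where it already read 13.26 at rest (limma adjusted p = 0.25). Collagen-modifying enzymes had 2 of 16 higher and 4 lower. Plod2, a collagen lysyl hydroxylase, was at 10.43, 10.63 and 10.13 in resting mProx, MCT and NMuMG and at 11.21, 11.51 and 11.38 after stimulation. Its groups were apart and its mean change of 0.97 missed the threshold (0.0678). Lox, a collagen crosslinking oxidase, was at -0.43 ± 0.73 (0.603). Matrix proteases and inhibitors had 8 of 29 higher and 5 lower, with Mmp2, a gelatinase, at 0.46 ± 0.70 (0.594). Integrins had 5 of 16 higher and 3 lower, with a median of 0.10 and a mean of -0.01. Itga5, the fibronectin receptor alpha chain, was higher by 2.48 in NMuMG alone, against 0.16 in mProx and -0.11 in MCT (0.546). Itgb1 was at 0.38 ± 0.23 (0.251).

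Complement and acute phase genes had 3 of 14 tested members that fell, Lbp, C1s1 and C1ra, with 5 lower in each line and 1 higher. The median was -0.33 over the mean changes, lowest in NMuMG at -0.73, then -0.47 in MCT and -0.05 in mProx, and 0.03 in EpH4. Glutathione and xenobiotic enzymes had 2 of 32 that fell, Gstm1 and Sult1c2, with 11 (34.4%) lower in each line and 6 higher. Gstm2, named after its values were seen, was at -1.20 ± 0.27 with groups apart (limma adjusted p = 0.0799). Prostaglandin genes had 2 of 10 higher in each line and 2 lower (20% each), of which Ptgds fell. Ptgs2, the inducible cyclooxygenase, was higher by 1.30 in mProx, 1.34 in MCT and 1.42 in NMuMG, with resting mProx dim, and missed the threshold (0.0678). Sodium pump and ion transport genes had 1 of 15 that fell, Atp1b1, with 3 lower in each line and 1 higher, the latter being Fxyd5, a pump modulator, at 1.33 ± 0.22 (0.0704).

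CDK inhibitors and p53 targets had 2 of 19 tested members that rose, Gadd45a and Pmaip1, with 7 higher in each line and 3 lower. The list median was 0.82 in mProx and 0.69 in MCT but -0.15 in NMuMG and -0.14 in EpH4. Cdkn1a, the p21 inhibitor gene, was higher by 2.00 in mProx and 0.86 in MCT and at -0.44 in NMuMG (limma adjusted p = 0.475). Cdkn1b was at -0.45 ± 0.29 (0.336). Of 31 DNA replication and mitosis genes 4 were higher in each line, 9 lower and none called, with Mki67, a proliferation marker, at -0.35 ± 0.34 (0.455) and Pcna, the polymerase clamp, at -0.10 ± 0.14 (0.648).

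Interferon-stimulated and antigen presentation genes had 9 of 22 tested members (40.9%) lower in each line, 1 higher and none called. MCT had the lowest median, -0.60, followed by NMuMG with -0.39, whereas mProx was at -0.06 and EpH4 near 0. Ifit2, named after its values were seen, went from 11.38 to 9.97 in mProx, from 9.25 to 8.34 in MCT and from 10.87 to 9.84 in NMuMG (mean -1.12; limma adjusted p = 0.0678). NF-kB pathway and chemokine genes had 7 of 20 (35%) lower in each line and 1 higher. Nfkbia, the NF-kB inhibitor gene, was at -0.31 in mProx, -0.42 in MCT and -0.41 in NMuMG, against 0.62 in EpH4 (0.137). Tnfaip3, another inhibitor of the pathway, was the higher one, at 0.81 ± 0.66 (0.303).

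Glycolysis and hypoxia genes had 7 of 18 (38.9%) higher in each line, 0 lower and none called, with a median of 0.72 in mProx that MCT (-0.002) and NMuMG (0.08) did not show. Hexokinase gene Hk2 was higher by 1.06 ± 0.65 (limma adjusted p = 0.182) and the glucose transporter gene Slc2a1 by 0.80 ± 0.65 (0.281). Sterol and fatty acid genes had 1 of 20 that rose, Acsbg1, with 4 higher in each line and 3 lower. Unfolded protein response genes had 2 of 16 higher and 2 lower, with Hspa5, the chaperone BiP, at -0.004 ± 0.22 (0.992) and Ddit3, the stress factor CHOP, at -0.32 ± 0.71 (0.671). Wnt, Notch and other morphogen genes had 8 of 31 higher and 1 lower. Wnt7b, a Wnt ligand gene, was higher by 1.27 ± 0.32 with groups apart and missed the threshold (0.065), and Jag1, a Notch ligand, was higher by 3.57 in MCT but at -0.14 in mProx (0.428).

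Cell type marker lists other than the epithelial list held no called gene. Of 14 tested proximal tubule genes 5 were lower in each line and 2 higher, and the summed deposited signal of the 26 measured genes went from 14750 to 5238 in mProx, from 2178 to 1339 in MCT and from 1164 to 1215 in NMuMG. The sums here are not normalized. Stimulated arrays had 0.928, 0.854 and 1.28 times the trimmed mean of their resting partners in mProx, MCT and NMuMG. A change of a sum no larger than that, as in NMuMG here, has no sure direction. Lrp2 was at -2.13 in mProx, 0.14 in MCT and 0.25 in NMuMG, and Cubn, its partner receptor, was at 0.05 ± 0.43 (SD, n = 3; limma adjusted p = 0.969). Mammary luminal genes had 4 of 9 higher in each line and 1 lower. Fibroblast genes had 2 of 10 higher and 1 lower, and their summed signal went from 2555 to 938.8 in mProx, from 453.2 to 467.2 in MCT and from 492.9 to 820.1 in NMuMG. Of the fibroblast genes, Col1a2 was at -0.02 ± 0.19 (0.985). Basal genes had 0 of 4 higher and 1 lower, with Krt5 at 0.19 ± 0.37 (0.806). Endothelial genes had 1 of 5 each way. Leukocyte genes had 1 of 8 higher and 2 lower, with Cd68 at 0.52 ± 0.23 (0.424), and their summed signal went from 2628 to 756.3 in mProx but stayed between 494.7 and 731.4 in MCT and NMuMG. The part of such cells in the results above was not tested.

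**Figure D4:**
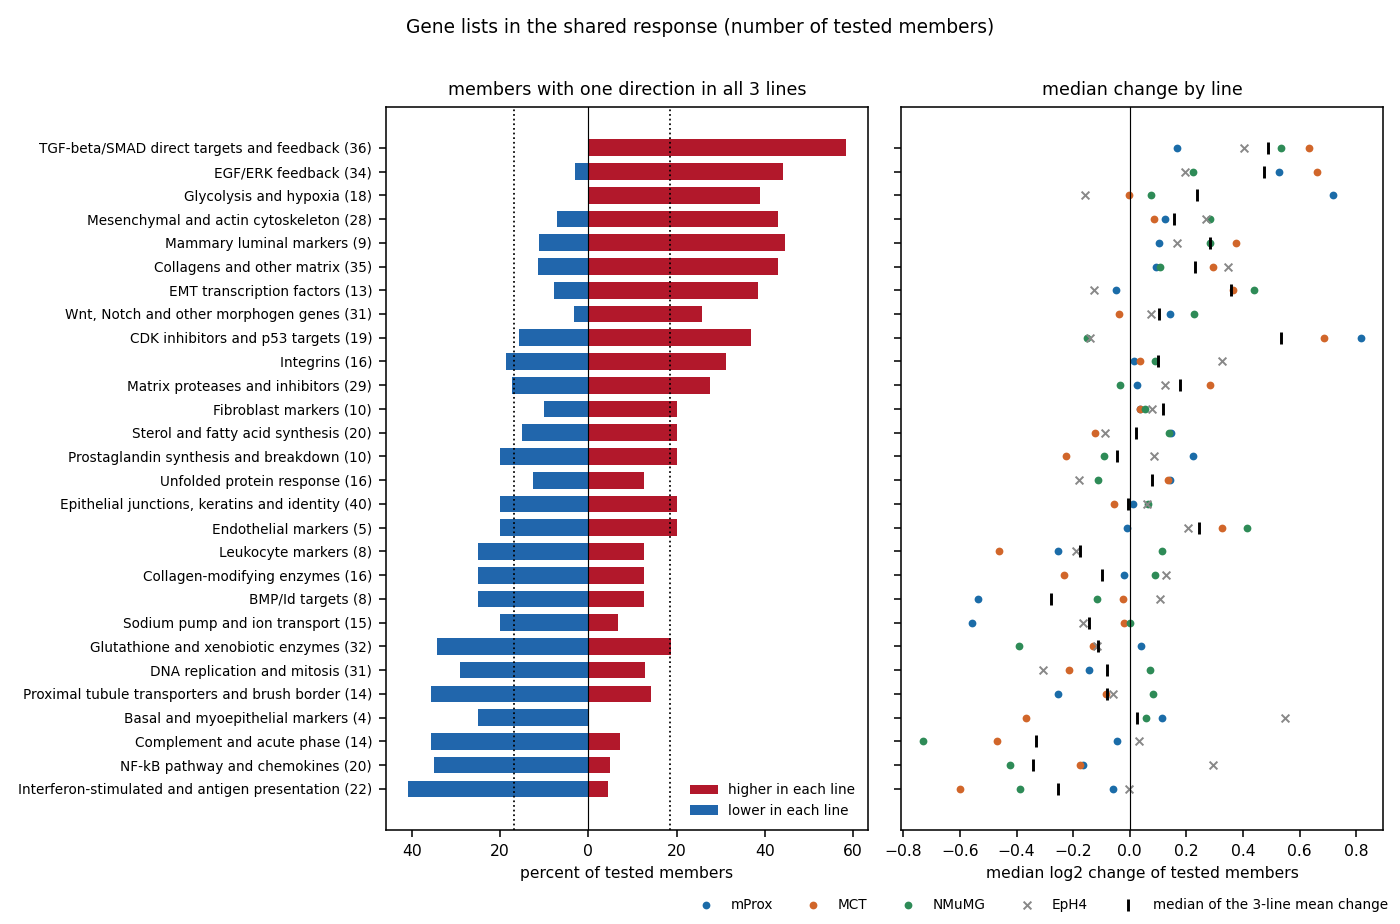
Left, percent of each list's tested members (number in parentheses) that were higher (red) or lower (blue) in each of the 3 lines, with dotted lines at the 18.6% and 16.8% of all tested genes. Right, median log2 change of the members in each line and over the 3 lines; TGF-β targets lead at 58.3% higher and interferon-stimulated genes have 40.9% lower.

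Upstream sequence was on hand for 13 of the 15 called genes, as 16 windows of 250 bases. The SMAD box CAGAC was in 7 of these windows (43.8%), against 42.2% of all 32851 windows. The AP-1 motif TGANTCA was in 3 (18.8%), those of Gja1, Ptgds and Scel, against 6.75%. The TEAD motif CATTCC was in 4 (25%), those of C1ra, C1s1, Tnnt2 and ccdc198, against 12.6%. The ETS motif CCGGAAG was in 0, against 6.91%. A match shows only that the letters are present, and with 16 windows these shares are imprecise.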

How the data were processed

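The deposited values are intensities on a linear scale, 1 per probe set and array, summarised with MAS5 per the submitters' processing notes. Version, scaling target and filters: not given in the sources used here. Of 45101 probe sets, 64 controls did not enter. Signals plus 10.6, the 25th percentile of all positive ones, were taken to log2 and the 8 arrays were quantile-normalized. The 27022 probe sets with a mean over the 6 arrays at or above the 40th percentile were tested.

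limma 3.58.1 in R 4.3.3 (lmFit with the line as a block, eBayes with an intensity trend) gave two-sided p-values, adjusted by Benjamini-Hochberg with a threshold of 0.05, on 2 residual degrees of freedom. The pairing comes from the titles, and deviations of same-line arrays from their group means correlated at 0.782, 0.764 and 0.852. EpH4 was compared through an added term over 8 arrays, with its spread assumed like that of the others. The code was tested on simulated data.

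Platform annotation gave 34945 probe sets 1 symbol, 932 several and 9160 none. A list gene used its brightest probe set, avoiding cross-hybridising ones. Windows came from RefSeq (GRCm38.p6). Members and lists were chosen with earlier results of these data known. Named are all called probe sets, up to 15 each way changed at least 2-fold in each line, and the first 2 members of each list that could be analysed, with others marked as seen first. The alternatives were 2 other scalings and quantile normalization of the 6 arrays, 2 offsets, 2 filters, no trend, no block, 1 probe set a gene, EpH4 included, and each line left out. The precision rests on the number of arrays.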

Additional observations from a re-analysis of the deposited data

How the results depend on the processing

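The reported counts of 8 rising and 10 falling probe sets depended on the processing more than the directions did. Values as deposited gave 195 rising and 181 falling, where limma estimated an infinite prior degree of freedom against 5.29 in the reported fit, and 13 for the EpH4 difference in place of 0. An offset of 1 gave 3 and 5, and an offset of 50 gave 2 and 2. No filter, no intensity trend, all 4 lines together, and the fit without the line block each gave 0 and 0, with smallest limma adjusted p of 0.118, 0.32, 0.0645 and 1, and 3857, 2678, 2969 and 297 probe sets at an unadjusted p under 0.05. The fit with 1 probe set a gene gave 5 and 9, all 14 among the called genes. Leaving out 1 line gave 6 to 62 rising and 11 to 60 falling, with 62 and 60 without NMuMG and 13 rising without mProx. The cause was not tested. Scaling to one trimmed mean (11 and 14), quantile normalization of the 6 arrays (8 and 10), a 60th percentile filter (8 and 9) and a fit of all 8 arrays with a separate EpH4 effect, chosen after seeing the data (11 and 10), stayed within 1.5 times. Of 572 refitted changes of 40 named probe sets 0 changed sign, but these were chosen for 1 direction in each line, so little follows. Of 84 list medians under other scalings 3 changed sign, that of the epithelial list from -0.01 to 0.01 and that of the basal list from 0.03 to -0.02 and -0.01. Dim signals limit sizes, since 5 of the 18 called probe sets had a dim array.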
